A study of Mus musculus with 8 samples.

Results

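Cell-cell junction genes are the genes whose proteins hold neighbouring cells together, seal the space between them or open channels from one cell into the next. They were taken from the expression table by symbol alone, as the numbered classical and related cadherins (Cdh), claudins (Cldn), zonula occludens scaffolds (Tjp), junctional adhesion molecules (Jam and F11r), connexins (Gja, Gjb and Gjc), desmogleins (Dsg), desmocollins (Dsc), plakophilins (Pkp), catenins (Ctnna, Ctnnb, Ctnnd and Jup) and pannexins (Panx), with the cingulins Cgn and Cgnl1 and occludin (Ocln). This rule found 87 of the 22200 genes in the table. The cells were immortalised mouse embryonic fibroblasts (MEFs) labelled TAF4-/- on the C57BL/6 background, TAF4 belonging to TFIID, a basal factor of transcription. Of the 8 libraries, 3 came from untreated MEFs at 12 h, 3 from MEFs after 12 h in retinoic acid (RA), and 2 from MEFs after 72 h in RA. Untreated MEFs were sampled at 12 h only, and the effect of RA at 72 h cannot be told apart from that of time. All groups share the same labelled genotype, there was no TAF4-expressing library to set beside them, and the sample titles carry a clone name (cl1) that resembles the study's name for its TAF4-expressing line. The labels do not say that replicates were separate cultures, so that p-values measure the spread between libraries, which may be technical.

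As background, adherens junctions are built from cadherins, whose cytoplasmic tails bind catenins that reach the actin cytoskeleton. Tight junctions are sealed by claudins and occludin on a scaffold of zonula occludens proteins and cingulins, desmosomes join desmogleins and desmocollins to intermediate filaments through plakoglobin and plakophilins, and gap junctions are channels of connexins. Fibroblasts carry adherens and gap junctions without the sealed tight junctions and desmosomes of epithelia, and RA acts on gene expression through nuclear receptors that bind repeated hexamers in DNA.

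The values were normalised reads per gene with identical distributions in all 8 libraries, so the sequencing depth of a library could not be read from them and no counting error can be given. The lowest value was 1 and the median was 20.75. Fibroblast markers summed to between 216584 and 257146 per library, led by Vim, although the fibroblast markers Dcn, Thy1 and Lum were near the lowest value throughout. The 9 of 12 epithelial markers in the table summed to between 52.3 and 89.1, with the keratins Krt5, Krt14, Krt8, Krt18 and Krt19 each at or near the lowest value and Grhl2 the highest at up to 38.4. The summed endothelial markers lay between 48.6 and 89, skeletal muscle markers between 31 and 56.5, neural markers between 40.3 and 59.9, and leukocyte markers between 44 and 68, in every group. All 5 tested genes of the retinoid response rose at 12 h, and 4 of them passed the same threshold at 72 h. Taf4a was read at 984 to 1449 in every library and Taf4b at 49.5 to 99, values over a whole gene that cannot show the loss of some exons. The first axis of variation within groups held 50.1% of the within-group variance. Its sign set 4 libraries (untreated 1 and 2, the third of RA 12 h and the second of RA 72 h) apart from the other 4. No label names a batch. The estimate of reads along gene bodies given below split the libraries in the same way. The axis was taken from these same values with each group centred, so every group necessarily had libraries on both sides. Changes are given below within each of these 2 sides for the members of the 87 that were called. Each such change has only 1 library in at least 1 of its 2 groups, so it is descriptive and no independent replication.

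The promoters of the genes with the largest changes are shown first, as the 250 bases before the RefSeq start of transcription on mm9, in the direction of the gene. They come from the 3 genes that passed the threshold at 12 h and from Cldn1, which had the largest decrease at 72 h. Capitals mark, on either strand, hexamers of the kind that RA receptors bind in pairs and the E-box CAGGTG bound by several repressors of epithelial genes. The hexamers searched were the consensus AGGTCA together with the variant AGTTCA found in response elements of RA target genes, and likewise the forms GGGTCA, which differs in its first base, and also GGTTCA.
F11r, chr1:173367442-173367691, plus strand: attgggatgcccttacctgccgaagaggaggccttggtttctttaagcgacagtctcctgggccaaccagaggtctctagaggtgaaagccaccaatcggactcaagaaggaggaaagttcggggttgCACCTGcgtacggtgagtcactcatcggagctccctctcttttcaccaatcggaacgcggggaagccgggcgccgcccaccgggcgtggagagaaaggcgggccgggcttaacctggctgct
Cgnl1, chr9:71619410-71619659, minus strand: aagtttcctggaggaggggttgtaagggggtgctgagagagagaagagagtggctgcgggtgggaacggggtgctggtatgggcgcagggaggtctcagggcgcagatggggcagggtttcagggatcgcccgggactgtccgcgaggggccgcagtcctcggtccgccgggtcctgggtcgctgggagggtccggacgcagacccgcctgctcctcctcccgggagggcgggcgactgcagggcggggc
Gjb2, chr14:57723540-57723789, minus strand: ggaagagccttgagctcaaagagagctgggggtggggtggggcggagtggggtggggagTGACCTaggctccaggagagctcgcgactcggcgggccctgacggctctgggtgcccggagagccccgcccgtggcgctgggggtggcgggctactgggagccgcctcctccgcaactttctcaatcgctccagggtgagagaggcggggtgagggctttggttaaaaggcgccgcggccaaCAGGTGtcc
Cldn1, chr16:26371926-26372175, minus strand: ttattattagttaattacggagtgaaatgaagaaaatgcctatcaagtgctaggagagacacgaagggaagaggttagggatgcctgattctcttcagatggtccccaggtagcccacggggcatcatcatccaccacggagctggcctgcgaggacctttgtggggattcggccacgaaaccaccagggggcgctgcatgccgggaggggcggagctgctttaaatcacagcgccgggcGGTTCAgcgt
F11r held the E-box on the opposite strand from 122 to 117 bases before the start. Gjb2 held a receptor hexamer from 191 to 186 and an E-box from 9 to 4 bases before its start, and Cldn1 held a receptor hexamer from 10 to 5 bases before its start. In the mm9 annotation used for coordinates, F11r starts within the end of its window. In the Cgnl1 window neither kind was found, and the marked motifs did not overlap each other. These are common letters, because 38.6% of the 32851 promoters in the table held at least 1 of the 4 hexamers and 17.2% held the E-box. Among 74 promoters of the 53 junction genes that matched the table, the shares were 43.2% and 20.3%. A pair of the same hexamers in direct repeat with a spacing of 1, 2 or 5 bases occurred in 0.164%, 0.174% and 0.0883% of all promoters and in 0 of the 74.

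The expression of junction genes in untreated cells was dominated by a small set of adherens and gap junction components. Averaged over all libraries, 22 of the 87 genes reached 100 or more, 26 lay between 10 and 100, and 39 stayed under 10, the minimum for testing. No library exceeded 15.75 for any of these 39, and 22 of the 87 were at the lowest value in at least 1 library. Shares by family were taken of the summed level of the 87 genes, averaged over all 8 libraries and so with the treated ones included. In reads per gene without regard to length, the 7 catenins made up 41.3%, the 22 cadherins 23.1% and the 16 connexins 20.0%. The 3 zonula occludens genes made up 5.49%, the 3 junctional adhesion molecules 3.36% and the 4 plakophilins 3.16%. The 17 claudins together made up 1.06%.

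Among adherens junction genes, Ctnnb1, the β-catenin that links cadherins to actin and also acts in Wnt signalling, was the highest of the 87 genes in normalised reads per gene. It was read at 7987, 7256 and 6070 in the untreated libraries, at 5884, 5027 and 6852 at RA 12 h and at 6034 and 6817 at RA 72 h. The 3 groups overlapped, and the log2 change was -0.27 ± 0.13 (SE) at 12 h and -0.14 ± 0.15 at 72 h, with a 95% interval of -0.46 to 0.18 at 72 h. Cdh11, a cadherin typical of mesenchymal cells, was second in untreated cells at 2520 ± 301 (SD, n = 3), and its change at 72 h was -0.07 with an interval of -0.34 to 0.21. Cdh2, the N-cadherin, reached 848 ± 61.6, Cdh13, the T-cadherin that is anchored in the membrane without a cytoplasmic tail, 616 ± 58.2, and Cdh3, the P-cadherin, 334 ± 56.4. Against these, Cdh1, the E-cadherin of epithelia, lay between 12.8 and 29.1 in all 8 libraries and Cdh5, the VE-cadherin of endothelium, between 7.63 and 14.3. The α-catenin Ctnna1 and Ctnnd1, which binds cadherins close to the membrane, were at 1074 ± 75.6 and 672 ± 55.9, while Jup, the plakoglobin shared with desmosomes, did not pass the filter and lay between 3.38 and 14.9.

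In the gap junction families, Gja1, the main connexin of fibroblasts, came after Ctnnb1 and Cdh11 on the same scale in untreated cells, at 2417 ± 617, and second by the mean over all 8 libraries, 3040, which includes its higher 72 h values. Gjc1, a connexin also found in heart and smooth muscle, was at 474 ± 52.2 in untreated cells, and 9 of the 16 connexins did not pass the filter. Tight junction genes were unevenly read. The scaffold Tjp1 was at 945 ± 110, Jam3 at 605 ± 35.8, and Cldn12 at 153 ± 12.6, but 13 of the 17 claudins did not pass the filter, 11 of them being under 10 in every library, and Ocln lay between 3.88 and 10.6. All 9 desmogleins and desmocollins failed the filter. Dsg2, the most widespread desmoglein, lay between 4.88 and 14.3 and Dsc2 between 1 and 8, and the near-identical copies Dsg1a, Dsg1b and Dsg1c are uncertain because reads could be split between them. Of the plakophilins, which also occur outside desmosomes, Pkp4 was at 578 ± 69.1 and Pkp2 at 66.7 ± 16.6.

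Per kilobase of annotated exon, a scale that holds if reads were spread over the transcript, the order changed little. Ctnnb1 stood at 1393 normalised reads per kb in untreated cells, Gja1 at 778, Cdh11 at 598, Ctnna1 at 290 and Jam3 at 238. Of the 15 highest genes on this scale, 13 were also among the 15 highest as deposited. The labels describe a protocol with a single tag per transcript while the methods describe fragmented RNA, so the levels as deposited are given as well.

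**Figure D1:**
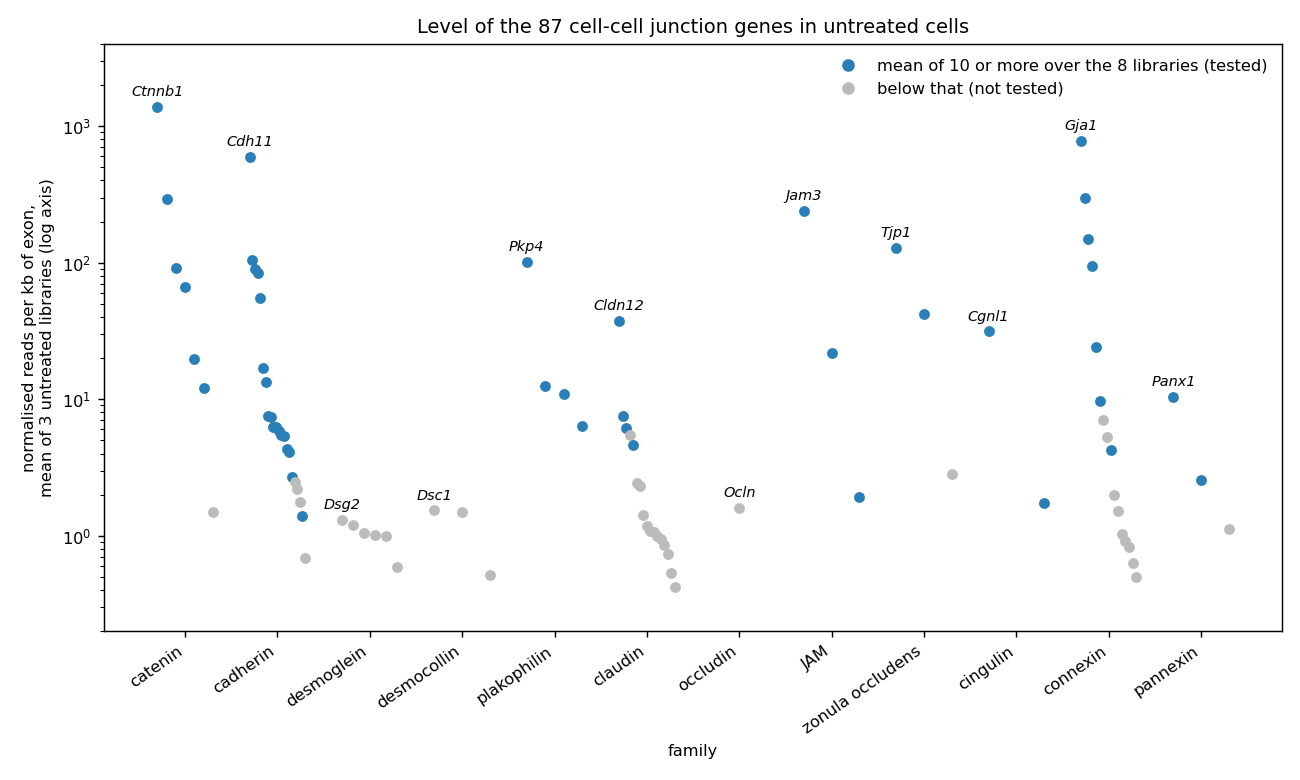
Level of each of the 87 junction genes in untreated cells, as normalised reads per kb of exon (mean of 3 libraries, log axis), by family, with the highest gene of each family named. Catenins, cadherins and connexins each had a member at or above the 598 per kb of Cdh11, and every desmoglein and desmocollin lay below 2 per kb.

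At 12 h of RA, 3 junction genes rose and 0 fell. Calls required an adjusted p under 0.05 (limma) together with a change of 2-fold or more, on log2(value + 1) and adjusted over all 12673 tested genes. The 3 called were 6.25% of the 48 tested junction genes, beside 1.42% of all tested genes (1.11% higher and 0.308% lower). Without the fold minimum the same 3 passed, all higher, beside 4.37% of all tested genes (2.87% higher and 1.50% lower). The groups did not overlap for 10 of the 48 genes (20.8%), 7 higher and 3 lower, close to the 20.0% of all tested genes (9.42% higher and 10.6% lower). The median log2 change of the 48 was 0.14, that of all tested genes -0.02. In bulk RNA, fewer cells that express a gene and less RNA per cell cannot be told apart.

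F11r encodes the junctional adhesion molecule JAM-A, an immunoglobulin-family protein of tight junctions. It was read at 52.4, 66.4 and 56.4 in the untreated libraries, at 98.8, 122 and 135 at RA 12 h, and at 339 and 304 at RA 72 h. The 3 groups did not overlap and each step was upward. The log2 change was 1.01 ± 0.16 at 12 h (limma, adjusted p = 0.00182) and 2.45 ± 0.18 at 72 h (adjusted p = 1.53e-06), the latter a ratio of means of 5.51. Within the 2 sides it was 1.18 and 0.95 at 12 h and 2.35 and 2.57 at 72 h. The 12 h change lay just over 2-fold: it was under 2-fold, with the adjusted p still at most 0.0167, without untreated replicate 1 (0.93) or 3 (0.98) or RA 12 h replicate 2 (0.98) or 3 (0.91), and with a pseudocount of 10 (0.91). The gene lies at chr1:173367666-173394734 on mm9, plus strand, and no other gene in the table overlaps it.

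Cgnl1 encodes paracingulin, a cytoplasmic protein of tight and adherens junctions. Its values were 242, 270 and 226 in untreated cells, 501, 482 and 559 at RA 12 h and 628 and 621 at RA 72 h. All 5 treated libraries lay above all 3 untreated ones, and both 72 h libraries lay above the 12 h ones. The log2 change was 1.06 ± 0.11 at 12 h (limma, adjusted p = 4.60e-05) and 1.34 ± 0.12 at 72 h (adjusted p = 1.20e-05), and it was 1.125 and 1.119 on the 2 sides at 12 h and 1.28 and 1.47 at 72 h. Without RA 12 h replicate 3 the 12 h change was 1.00, just under 2-fold. Between 12 h and 72 h the change was 0.28 with an adjusted p of 0.234. Its relative Cgn, the cingulin of epithelial tight junctions, lay between 6.75 and 28.4 in the 8 libraries and did not pass the test in any comparison.

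Gjb2, a connexin of epithelial gap junctions, was read at 19.3, 26.8 and 24.3 in untreated cells, at 84.3, 48.5 and 60.9 at RA 12 h, and at 38.8 and 54.1 at RA 72 h. Every treated library was above every untreated library, and the 72 h values overlapped those of 12 h. The log2 change was 1.40 ± 0.25 at 12 h (limma, adjusted p = 0.00393), with 1.38 and 1.36 on the 2 sides. At 72 h it was 0.95 ± 0.27 with an adjusted p of 0.0398, under the fold minimum, and the adjusted p stayed under 0.05 in 7 of the 14 refits.

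**Figure D2:**
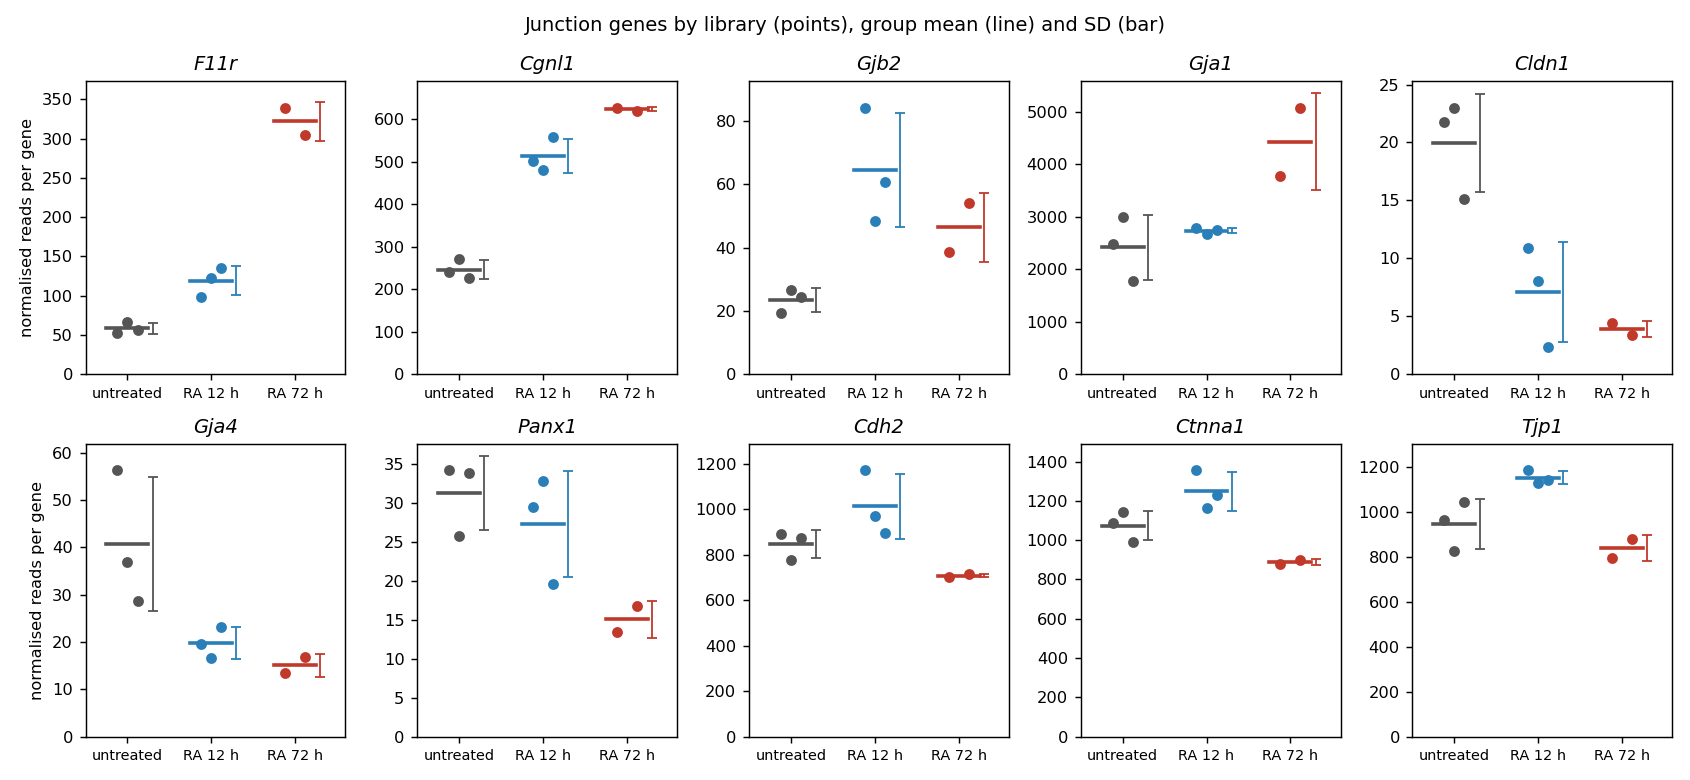
Normalised reads per gene in each library (points) for 10 of the junction genes that passed an adjusted p of 0.05 in at least 1 comparison, with the group mean (line) and SD (bar) for 3 untreated, 3 RA 12 h and 2 RA 72 h libraries; each panel has its own axis from 0. F11r and Cgnl1 rose at both times, Cldn1, Gja4 and Panx1 were lowest at 72 h, and Cdh2, Ctnna1 and Tjp1 were lower at 72 h than at 12 h.

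At 72 h, in comparison with untreated cells at 12 h, 5 junction genes were called, F11r and Cgnl1 higher and Cldn1, Gja4 and Panx1 lower. They were 10.4% of the 48 tested, beside 3.67% of all tested genes (2.15% higher and 1.52% lower). With the adjusted p alone, 4 rose and 7 fell, 22.9% of the 48, beside 11.5% of all tested genes (6.08% higher and 5.41% lower). The groups did not overlap for 19 of the 48 (39.6%), 8 higher and 11 lower, beside 36.6% of all tested genes (17.2% higher and 19.4% lower), and the median log2 change was -0.02 both for the 48 and for all genes. This comparison shares its untreated libraries with that at 12 h.

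Cldn1, a sealing claudin of epithelial tight junctions, was read at 21.8, 23 and 15.1 in untreated cells, at 10.9, 8 and 2.38 at RA 12 h and at 4.38 and 3.38 at RA 72 h. All treated libraries were below all untreated ones, at values near the bottom of the scale. The untreated mean was 20.0, while those at RA 12 h (7.08) and RA 72 h (3.88) were under the minimum of 10 for testing. Cldn1 thus passed the filter only through its untreated libraries, which favours a decrease, and its call is no independent support for one. Without the filter the adjusted p at 72 h was 0.0381 (limma). The log2 change was -2.09 ± 0.52 at 72 h (limma, adjusted p = 0.0177), and -2.42 and -1.58 on the 2 sides. At 12 h it was -1.54 ± 0.46 with an adjusted p of 0.0903. The 72 h call was lost without RA 72 h replicate 1 (adjusted p = 0.0755) or replicate 2 (adjusted p = 0.107). The gene did not pass the filter, and so was not tested, without untreated replicate 1 or 2 or once gene-body background was subtracted.

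Gja4, a connexin best known from arterial endothelium, had values of 56.3, 36.9 and 28.8 in untreated cells, 19.5, 16.6 and 23.3 at RA 12 h and 13.4 and 16.8 at RA 72 h. Both treated groups were below the untreated group. The log2 change was -1.33 ± 0.32 at 72 h (limma, adjusted p = 0.0144), with -1.39 and -1.05 on the 2 sides, and -0.96 ± 0.28 at 12 h (adjusted p = 0.0845). Without untreated replicate 1, its highest library, the 72 h adjusted p was 0.0731, and without RA 72 h replicate 1 it was 0.133. With a pseudocount of 10 the 72 h change was -0.98, under the fold minimum.

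Panx1 forms large-pore membrane channels related in shape to connexin channels. It was read at 34.1, 25.8 and 33.8 in untreated cells, at 29.4, 32.8 and 19.6 at RA 12 h, and at 13.4 and 16.8 at RA 72 h. Only the 72 h libraries stood apart from the untreated ones. The log2 change at 72 h was -1.001 ± 0.295 (limma, adjusted p = 0.0440), just past both thresholds, with -0.79 and -1.27 on the 2 sides. The call was lost without untreated replicate 1 or 3, RA 12 h replicate 1 or 2 or either RA 72 h replicate (adjusted p from 0.0615 to 0.280), without the filter on low values (0.119) and with a pseudocount of 10 (a change of -0.71), and it held in 5 of the 14 refits.

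Gja1 had the largest difference in mean reads between untreated and 72 h cells among the 87 genes. Its values were 2479, 3001 and 1771 in untreated cells, 2779, 2678 and 2754 at RA 12 h, and 3775 and 5084 at RA 72 h. The untreated and 12 h libraries overlapped, and both 72 h libraries were above all others. The log2 change at 72 h was 0.89 ± 0.18 (limma, adjusted p = 0.00620), a ratio of 1.83, and against 12 h it was 0.68 ± 0.18 (adjusted p = 0.0485). At 72 h against untreated it passed 2-fold without untreated replicate 2 (1.06) or RA 72 h replicate 1 (1.11), and without RA 72 h replicate 2 it was 0.68 with an adjusted p of 0.0951. Against 12 h the adjusted p stayed under 0.05 in 5 of 14 refits with 1 choice or library changed and reached 0.410 without RA 72 h replicate 2.

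Among other genes past the adjusted p alone at 72 h were Cdh18, a cadherin best known from the nervous system, with a change of -0.78 ± 0.18 (limma, adjusted p = 0.0141), and Cdh13, at -0.41 ± 0.12 (adjusted p = 0.0485). Cdh13 was read at 566, 601 and 680 in untreated cells and at 505 and 424 at 72 h. Its adjusted p was under 0.05 in 3 of the 14 refits and in none with a library left out (0.0567 or more). That of Cdh18 was under 0.05 in 12 of the 13 in which it was tested. The exception was without RA 72 h replicate 1, when its change was -0.68. Once gene-body background was subtracted, Cdh18 did not pass the filter and so was not tested. In that refit the change of Cdh13 was -0.62 (limma, adjusted p = 0.00303).

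**Figure D3:**
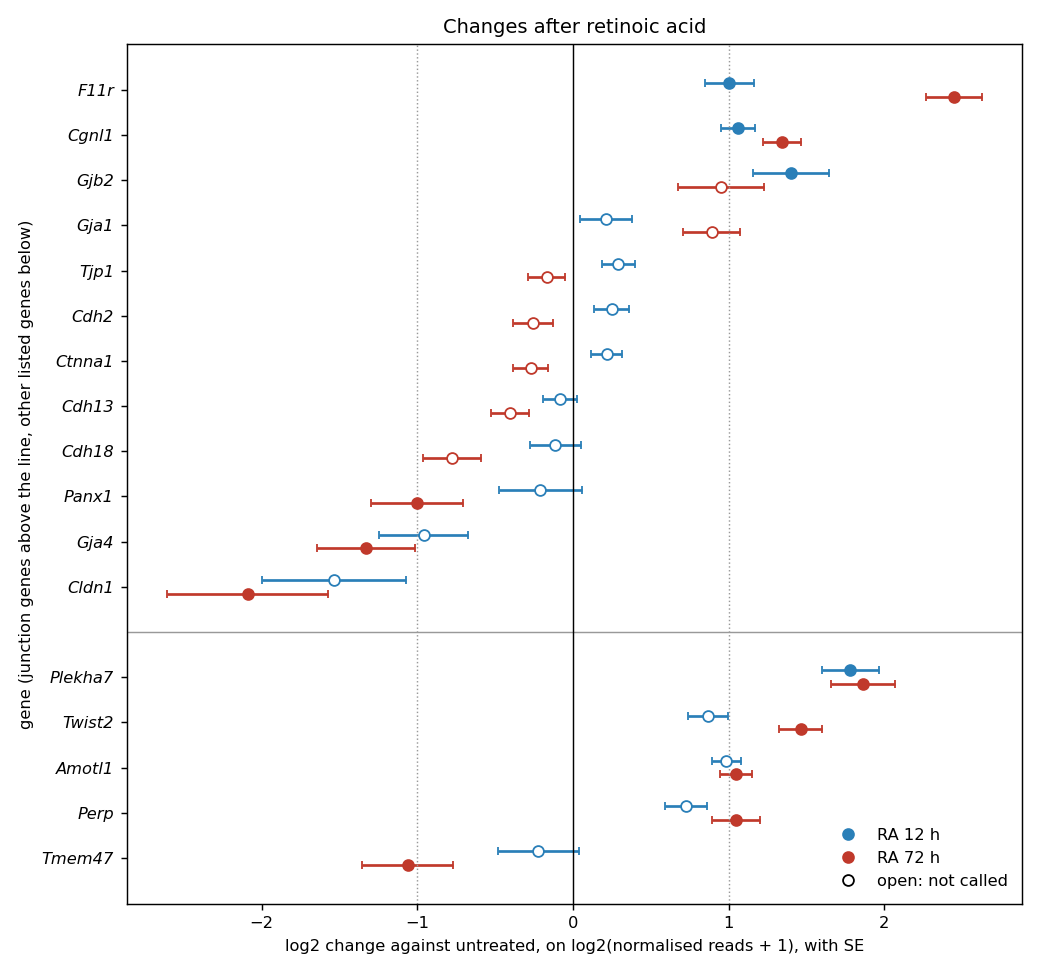
Log2 change against untreated cells on log2(normalised reads + 1), with SE, at RA 12 h (blue) and RA 72 h (red), for 12 of the junction genes past an adjusted p of 0.05 in at least 1 comparison and 5 called genes from lists of other junction genes and transcription factors; filled points were called and dotted lines mark 2-fold. Of the genes shown, F11r had the largest increase and Cldn1 the largest decrease at 72 h.

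Between 12 h and 72 h of RA, F11r was the 1 junction gene called, with a log2 change of 1.44 ± 0.18 (limma, adjusted p = 0.000348) and 1.16 and 1.62 on the 2 sides. It was 2.08% of the 48, beside 1.50% of all tested genes (0.765% higher and 0.734% lower). With the adjusted p alone, 2 rose and 5 fell (14.6%), beside 5.84% of all tested genes (2.92% higher and 2.92% lower). The groups did not overlap for 21 of the 48 (43.8%), 8 higher and 13 lower, beside 37.3% of all tested genes (18.1% higher and 19.2% lower). Gja1 was the other gene that rose, and 3 of those that fell are abundant components of adherens and tight junctions. Cdh2 was read at 1170, 971 and 896 at 12 h and at 704 and 713 at 72 h, Ctnna1 at 1355, 1163 and 1228 and then 877 and 899, and Tjp1 at 1184, 1128 and 1141 and then 797 and 878. In all 3 the 72 h libraries were below the 12 h libraries. The log2 changes were -0.51 ± 0.13 (limma, adjusted p = 0.0330), -0.49 ± 0.11 (adjusted p = 0.0199) and -0.46 ± 0.12 (adjusted p = 0.0369). Of the 14 refits the adjusted p stayed under 0.05 in 6 for Cdh2, 9 for Ctnna1 and 5 for Tjp1, and it was over 0.05 for all 3 without either RA 72 h replicate, reaching 0.261. Against untreated cells none of these 3 passed the test: at 12 h their changes were 0.25, 0.22 and 0.29 with adjusted p from 0.175 to 0.301, and at 72 h they were -0.26, -0.27 and -0.17 with adjusted p from 0.149 to 0.427.

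Reads over long genes bore on part of the list. In 943 genes of at least 200 kb, the 25th percentile of normalised reads per Mb of gene was 91.7, 71.9 and 138 in the untreated libraries, 135, 132 and 101 at RA 12 h and 150 and 105 at RA 72 h. This was used as an estimate of reads that fall anywhere along a gene body. It lay between 71.9 and 105 in untreated 1 and 2, the third library of RA 12 h and the second of RA 72 h. In the other libraries it lay between 132 and 150. That is the same split as by the sign of the first within-group axis, and its cause was not tested. Of the 10 tested junction genes of at least 200 kb, the estimate was at least 50% of the mean value in 6, and of the 38 shorter ones in 8. The genes named next were picked after their values were seen. Ctnna3 and Ctnna2, the α-catenins of heart and of neurons, span 1574 kb and 1098 kb, and the estimate was 107% and 116% of their means of 170 and 109. Cdh4 was read at 48.9, 32.6 and 81.6 in untreated cells, at 75.8, 67.4 and 50 at RA 12 h and at 76.9 and 40.9 at RA 72 h, which orders the untreated libraries as the estimate does. For Cdh18 the estimate was 161% of the mean of 66.2, and for Cdh13, of 1041 kb, 21.3%. It was 2.13% for F11r, 3.80% for Cgnl1, 1.58% for Gjb2 and at most 1.14% for Gja1 and Gja4. The shares were larger for Cldn1 (15.8%) and Panx1 (18.1%). After subtraction the same 3 genes were called at 12 h, and at 72 h all 5 but Cldn1.

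**Figure D4:**
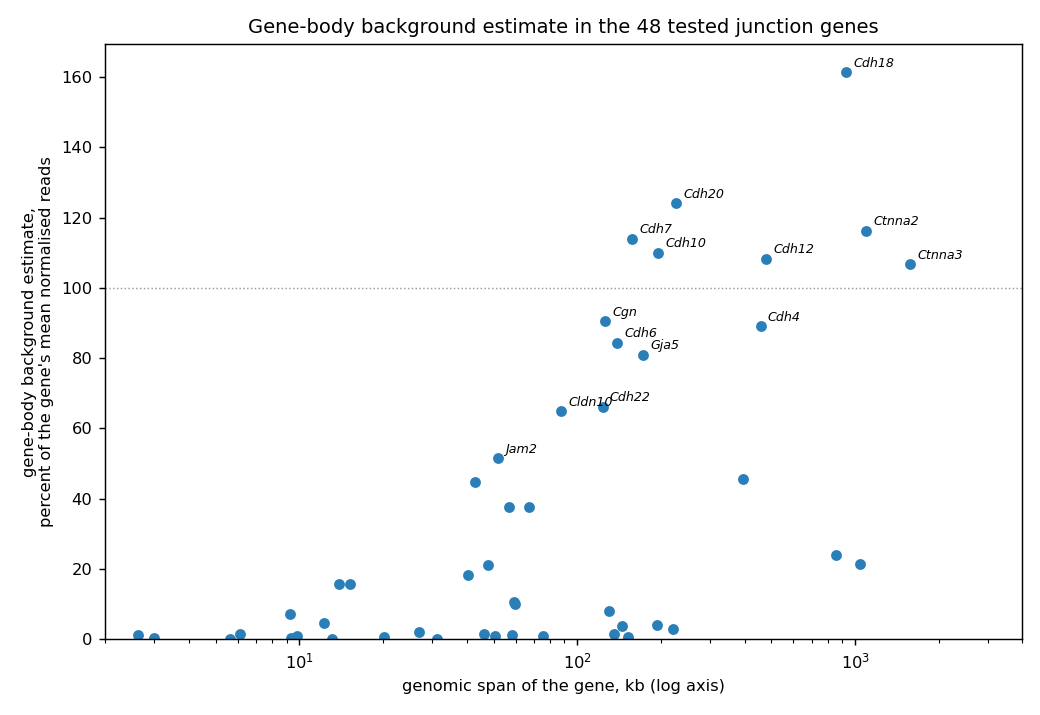
Estimate of gene-body background as a percent of the mean normalised reads, against the genomic span of the gene in kb (log axis), for the 48 tested junction genes; points of 50% and over are named and the dotted line marks 100%. Of the 14 named genes 6 span at least 200 kb, and the genes called at 12 h are not among them.

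Of a list of 61 other junction symbols, such as nectins, polarity proteins, desmoplakin and actin linkers, 49 were in the table and 40 were tested. At 12 h 1 was called higher and 0 lower (2.50% of the 40, beside 1.42% of all tested genes), and at 72 h 3 were called higher and 1 lower (10.0%, beside 3.67%), with a median change of 0.11 and -0.02. Plekha7, which anchors adherens junctions to microtubules, was read at 36.1, 30 and 49.1 in untreated cells, at 140, 135 and 122 at RA 12 h and at 138 and 141 at RA 72 h. It rose by 1.78 ± 0.18 at 12 h (limma, adjusted p = 4.11e-05) and by 1.86 ± 0.21 at 72 h (adjusted p = 5.26e-05). Amotl1, an angiomotin that binds Yap1 at junctions, rose by 1.05 ± 0.10 at 72 h (limma, adjusted p = 2.12e-05) and by 0.98 ± 0.09 at 12 h (adjusted p = 1.79e-05), from 1133 ± 84.1 in untreated cells to 2338 ± 112 at 72 h. Perp, a membrane protein of desmosomes, rose by 1.05 ± 0.15 at 72 h (limma, adjusted p = 0.000515), from 151 ± 11.8 to 313 ± 13.7. Tmem47, a claudin-like membrane protein, fell by 1.06 ± 0.29 on the log2 scale at 72 h (limma, adjusted p = 0.0314), from 40.5 ± 9.68 to 18.6 ± 0.265, and this call was lost in 8 of the alternatives, among them without either RA 72 h replicate.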

How the data were processed

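The authors deposited normalised reads (tags) per gene for 8 libraries, assigned to mm9 per the labels' processing notes; the methods describe alignment to that build, gene models of Ensembl release 57 and a normalisation of counts, while the labels describe a DpnII tag protocol, and both are given because they differ. The deposited values have no standard unit: all 8 columns held the same 22200 sorted values (whole numbers of eighths below 1000), so depth was lost. A total line was left out, and the authors' average and ratio columns were not used.

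Values were analysed as log2(value + 1) with limma 3.58.1 (R 4.3.3; variance trend, 3 groups without covariates), for the 12673 genes with a mean of at least 10, with Benjamini-Hochberg adjustment over all of them. A call required an adjusted p under 0.05 and 2-fold. The script was tested on simulated data. IDs were matched to an mm9 annotation (96.7%), and promoters were taken from a RefSeq table.

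Named genes were the members past the adjusted p in any comparison, the 15 with the highest mean, a core set of junction components, and genes called on the other lists. Members and lists were chosen with earlier results of these data known. Alternatives were another pseudocount, no filter, other call thresholds, each library left out, a replicate block, side as a term, background subtraction and no variance trend. Some of these genes are not reported here.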

Additional observations from a re-analysis of the deposited data

Results flagged for a closer look

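F11r stood out because its level in RA-treated cells differed between the times. The 72 h libraries were higher than the 12 h libraries by a log2 change of 1.44 ± 0.18 (limma, adjusted p = 0.000348), with 2 of 2 libraries above 3 of 3. Without untreated cells at 72 h, this step cannot be told apart from an effect of time. The groups of 2 and 3 libraries are too small for a test of single outlying libraries.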

How the results depend on the processing

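At 12 h, the count of 3 junction genes called became 0 at 3-fold and ranged from 1 to 4 when each library was left out. The 1 came without RA 12 h replicate 3, when F11r and Cgnl1 lay just under 2-fold, and the 4 without untreated replicate 3, when Cldn1 and Gja4 were called lower and F11r was not called. At 72 h, the count of 5 became 3 with a pseudocount of 10, 11 without a fold minimum and 2 at 3-fold, and ranged from 2 (without untreated replicate 1) to 7 (without untreated replicate 3); it was 3 without either RA 72 h replicate. Without the filter, Cldn19 was called lower at 72 h and Panx1 was not. Between 12 h and 72 h, the count of 1 became 2 with side as a term, by the addition of Cdh26, 7 without a fold minimum and 0 at 3-fold, and was 1 with each library left out. F11r and Cgnl1 at 72 h, Gjb2 at 12 h and F11r between the times were called in all of the 14 refits. With side as a term Cldn1 was also called lower at 12 h. Side was taken from the within-group spread of these same values, so this term removes part of that spread by construction. The calls of Cldn1 and Cdh26 added by it are therefore no support for a change. Over 27 genes and comparisons, counted by the call with its fold minimum, 340 of 374 values kept their direction and side of the threshold, 30 lost it, 4 gained it and 0 reversed, and 4 more refits left the gene untested (3 of Cldn1 and 1 of Cdh18). By the adjusted p alone, the 12 genes and comparisons reported for it stayed under 0.05 in 102 of 168 refits and were at or over it in 65. The cause of these differences was not tested.

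No pairing of libraries by replicate number could be seen. Of 7 same-numbered pairs 2 had a correlation of deviations over 0.1 (range -0.47 to 0.42), and 2 of 8 libraries correlated best with their own number. This check cannot show that the cultures were unpaired, because deviations from the mean of so few libraries depend on each other. With the replicate block, 3, 4 and 1 junction genes were called at 12 h, at 72 h and between the times. Panx1 was the 72 h call lost with it (adjusted p = 0.0832). Depth cannot be judged from these values, and levels near the lowest value cannot be told from absence.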

Other observations

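Transcription factors of the epithelial-mesenchymal transition, several of which repress epithelial junction genes, were read in these fibroblasts. Over the 8 libraries and in normalised reads per gene, Zeb1 had a mean of 603, Snai2 of 511, Zeb2 of 302 and Snai1 of 171 (named after their values were seen). A list of 16 factors linked to this transition was matched by symbol alone. It also held Grhl2, Grhl3, Ovol1 and Ovol2, which are factors of epithelial cells. Of the 16, 11 were tested, and Twist2 was the 1 called, at 72 h (9.09% of the 11, beside 3.67% of all tested genes). Twist2 was at 225 ± 37.2 in untreated cells, 408 ± 19.5 at RA 12 h and 617 ± 32.0 at RA 72 h. Its log2 change was 0.87 ± 0.13 at 12 h (limma, adjusted p = 0.000913) and 1.46 ± 0.14 at 72 h (adjusted p = 1.68e-05).

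Cldn19, a claudin below the filter and picked after its values were seen, was read at 11.5, 12.5 and 5.63 in untreated cells, at 2.5, 3.38 and 3.25 at RA 12 h and at 1 and 1.75 at RA 72 h.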
